A study of Mus musculus with 7 samples.

Results

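Imprinted genes are expressed from the copy of one parent only, and the choice is set by control regions that carry DNA methylation on one parental copy. CTCF is a zinc finger protein that binds a long DNA motif, cannot bind some of its sites when a CpG in them is methylated, and halts the cohesin ring on DNA; Rad21 is a subunit of that ring. At H19 and Igf2, the textbook case, CTCF bound to the unmethylated maternal control region upstream of H19, a non-coding RNA gene, keeps the shared enhancers away from Igf2, a fetal growth factor gene.

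All CTCF and Rad21 peaks of female mouse liver within 100 kb of 10 imprinted genes were taken, with the gene spans of the mm9 annotation. The genes were H19, Igf2, Meg3, Dlk1, Kcnq1ot1, Cdkn1c, Peg3, Grb10, Igf2r and Mest. Neighbouring windows overlap, so that the 10 genes make 7 loci of 2.02 Mb in all. They held 87 of 68667 CTCF peaks and 104 of 68656 Rad21 peaks. Kcnq1ot1 is not named in the annotation used, and its start was placed by a unique match of its 300-base RefSeq promoter sequence to mm9; its window is 100 kb to either side of that start.

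Liver chromatin came from female CD-1 mice of an outbred stock, 8 weeks of age, for which the labels give no treatment, and was profiled by ChIP-seq. The authors pooled 4 CTCF libraries into one list and 3 Rad21 libraries into the other, so there is no replicate spread, and no test between groups was possible. The tissue is whole liver, and the reads of the maternal and paternal copies cannot be told apart in these lists. Peaks that share at least 1 bp are called CAC (cohesin and CTCF), CTCF peaks without Rad21 are called Lone CTCF, and Rad21 peaks without CTCF are called CNC (cohesin without CTCF).

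Each peak has a fold enrichment, the height of the read pile at its summit over a local background. The deposited fold and p-value together fix the number of reads at the summit, and this number is given with its exact 95% Poisson interval, which covers counting error only. The same calculation showed what the local background was. In 52845 CTCF and 56653 Rad21 peaks whose background lay above a genome-wide floor, it matched a whole number of reads in 10 kb (within 0.05 reads in 100% of peaks), with reads extended to 197 bp for CTCF and 195 bp for Rad21. The reads at the summit never outnumbered those in the 10 kb. Above the floor, fold enrichment therefore sets a summit against its own 10 kb surroundings, and of 2 such summits with the same reads, the one with more reads within 10 kb has the lower fold. In the 15818 CTCF and 12003 Rad21 peaks at the floor, the fold depends on the reads at the summit alone. Reads are given beside the fold where this matters. The folds of CTCF and Rad21 come from different antibodies and pools, so where both are printed for a pair, they are not on one scale. A statement that one factor stands higher than the other rests on percentiles within each list.

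CTCF peaks at the imprinted genes numbered 62 with Rad21 and 25 without it, a CAC share of 71.3% (61.0 to 79.7%, 95% Wilson interval), against 73.7% in the whole CTCF list. Of the 104 Rad21 peaks, 62 were CAC (59.6%, 50.01 to 68.5%) and 42 were CNC, against 73.6% CAC in the whole Rad21 list. Cohesin without CTCF thus made up a larger share in these windows together than in the list. The loci differed, with 11 of 23 Rad21 peaks CNC at Igf2r and 2 of 16 at H19 and Igf2. The share in the windows of other genes is not given here. With 200 kb to each side, the CAC share of Rad21 peaks was 67.5%, nearer to that of the list. With a fold of at least 5 in both lists, it was 76.7% of 43 peaks at these genes and 83.9% in the list. The median fold was 6.02 for CTCF (list 6.05) and 4.57 for Rad21 (list 4.93). The ranges were wide, from 2.61 to 24.6 for CTCF and from 2.23 to 22.2 for Rad21.

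The windows held 43.04 CTCF and 51.4 Rad21 peaks per Mb, above 27.1 and 27.2 per Mb over the autosomes. Windows around genes are richer in peaks than the genome at large, and the median window of a protein-coding gene held 51.04 CTCF and 48.4 Rad21 peaks per Mb. Against those windows the 10 genes lay between percentile 13.3 (Mest) and 62.0 (H19) for CTCF, and between 29.1 (Mest) and 78.05 (Igf2r) for Rad21. All 10 genes had a CAC peak in their window, as had 90.2% of protein-coding genes.

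**Figure D1:**
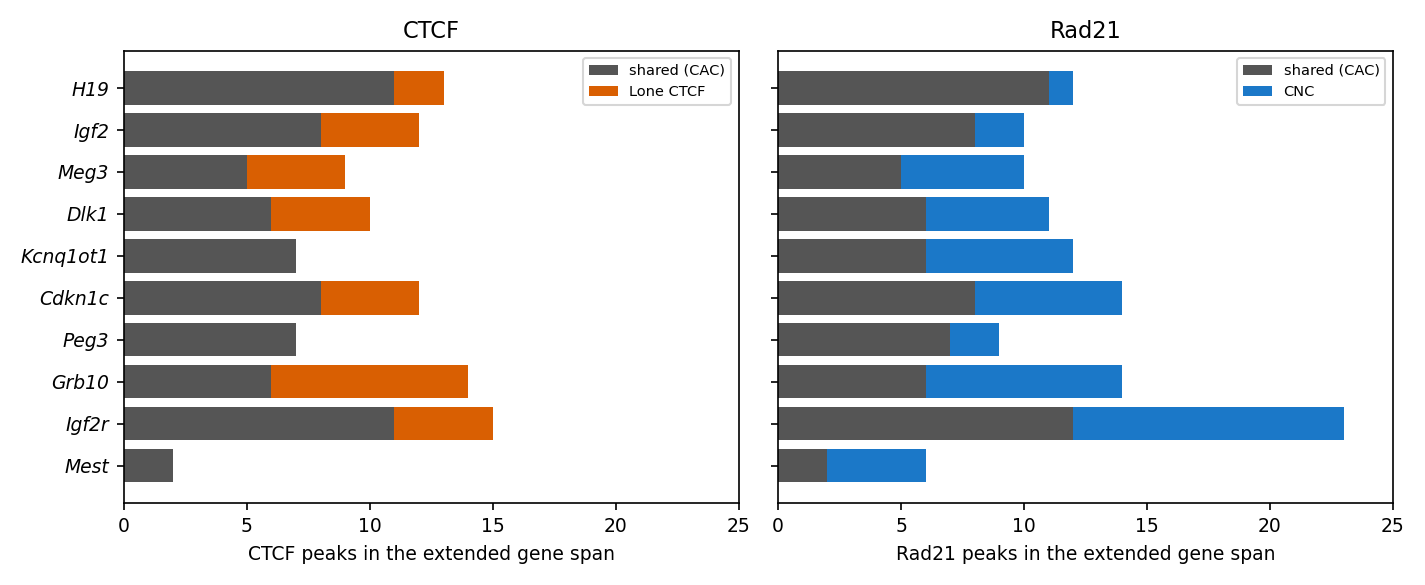
Number of CTCF peaks (left) and Rad21 peaks (right) in the span of each imprinted gene extended by 100 kb, split into shared (CAC) and single-factor peaks. Igf2r has the most Rad21 peaks (23, of which 11 are CNC), Mest the fewest CTCF peaks (2), and the windows of H19 and Igf2, Meg3 and Dlk1, and Kcnq1ot1 and Cdkn1c overlap and share peaks.

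By locus, CAC peaks were 7 of 7 CTCF peaks at Peg3, 2 of 2 at Mest, 14 of 18 at H19 and Igf2, 14 of 18 in the joint window of Kcnq1ot1 and Cdkn1c, 11 of 15 at Igf2r, 8 of 13 at Meg3 and Dlk1 and 6 of 14 at Grb10, against 73.7% in the list. These are small counts, and the difference between loci was not tested. CNC peaks were most numerous at Igf2r (11 of 23 Rad21 peaks), in the joint window of Kcnq1ot1 and Cdkn1c (10 of 23) and at Grb10 (8 of 14), and fewest at H19 and Igf2 (2 of 16) and at Peg3 (2 of 9).

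The control region upstream of H19 carried both factors in 2 places. It was taken as the stretch 1 to 5 kb upstream of the H19 start (chr7:149765048-149769048, mm9; H19 is on the minus strand). The peak nearer to H19 (chr7:149766040-149766908) had a CTCF fold of 8.61 at 129 reads (108 to 153) and overlapped a Rad21 peak with a fold of 10.6 at 160 reads (136 to 187). The farther peak (chr7:149767574-149768001) had a CTCF fold of 5.56 at 83 reads (66.1 to 103) and a Rad21 fold of 3.26 at 48 reads (35.4 to 63.6). The summits lay 2207 and 3786 bp upstream of H19 for CTCF. The nearer peak stood at percentile 62.1 of the CTCF list and 80.0 of the Rad21 list, and the farther one at 46.4 and 17.1. By reads the percentiles were 69.2 and 87.7 for the nearer peak and 58.6 and 52.6 for the farther one. H19 itself had no peak of either factor within 1 kb of its start or in its body.

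The sequence of the control region held no full match to the general CTCF motif, but several shorter ones. A 20-bp CTCF matrix learned from strong peaks on chromosomes without an imprinted gene of the set (consensus NNGCCACNAGGGGGCGCNNN) had no match of at least 14.1 bits, the score reached in 1% of flanking windows, anywhere in the control region. The shorter letters GGNGGCAG, searched on both strands, occurred 6 times in these 4 kb. They are the core of the CTCF sites known from this same region and were chosen for that, so that their number here is a description only. At least 1 occurrence is found in 73.1% of the equally long windows upstream of 25087 genes, and 6 or more in 1.77%. The 6 are printed as 20 bases that end with the letters (in capitals), each on its own strand, with its distance from the H19 start, because 4 of them share the CpG-rich stem ccgc.
1301 bp upstream, plus strand: attcactggtgtGGTGGCAG
2169 bp upstream, minus strand: acgatgccgcgtGGTGGCAG
2624 bp upstream, minus strand: atgctaccgcgcGGTGGCAG
3650 bp upstream, minus strand: gggttgccgcacGGCGGCAG
3769 bp upstream, minus strand: aaatgccactagGGGGGCAG
3894 bp upstream, minus strand: gagttgccgcgtGGTGGCAG

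The 4 sequences with ccgc, at 2169, 2624, 3650 and 3894 bp, lay on the same strand as H19, and all 4 fell inside the CTCF peaks. The nearer peak held those at 2169 and 2624 bp, and the farther peak those at 3650 and 3894 bp. Their matrix scores were 10.7, 11.9, 8.21 and 11.9 bits, each for a matrix window shifted by a few bases from the bases printed. All were below the threshold of 14.1. All but the one at 3650 bp were above 8.65 bits, the score reached in 5% of flanking windows. Each had 2 or 3 CpG dinucleotides within its 20 printed bases. The match at 3769 bp, also inside the farther peak, had 0 in its printed bases and scored 2.41 bits, again in a shifted window. The match at 1301 bp lay outside all peaks. The Rad21 peak at the farther place ended before the sequence at 3894 bp.

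At the farther CTCF summit, at 3786 bp, the closest match was the one at 3769 bp, which has 0 CpG and no ccgc. The stretch around the nearer CTCF summit, printed along H19 with the matched letters in capitals, puts the sequence at 2169 bp close to the summit at 2207 bp.
chr7:149766155-149766354, minus strand: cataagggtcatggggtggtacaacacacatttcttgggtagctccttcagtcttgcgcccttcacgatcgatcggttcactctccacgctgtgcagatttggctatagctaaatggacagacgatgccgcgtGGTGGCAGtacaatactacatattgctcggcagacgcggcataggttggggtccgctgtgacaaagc

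**Figure D2:**
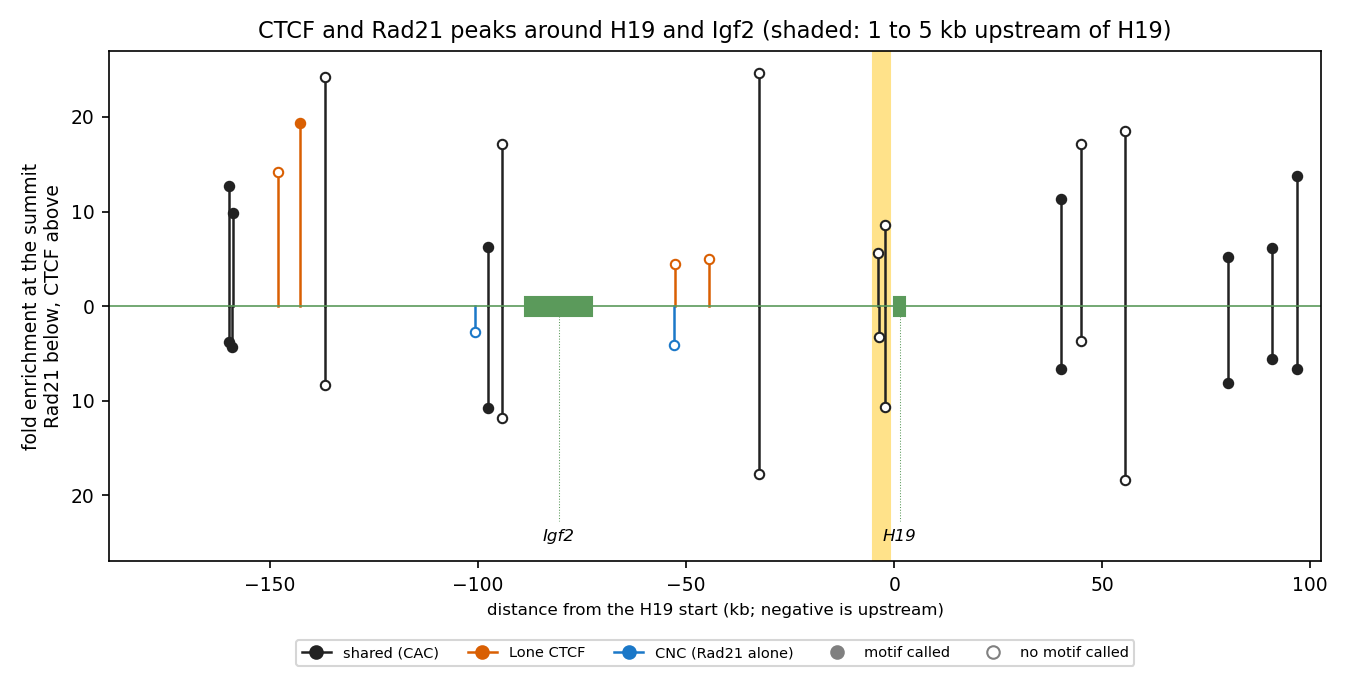
Fold enrichment at each summit (CTCF above the line, Rad21 below) against the distance from the H19 start in kb, with negative values upstream; gene bodies are green and the control region is shaded. The 2 shared pairs of the control region have CTCF folds of 8.61 and 5.56, and the highest CTCF peak (24.6) lies 32.6 kb upstream of H19.

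Between H19 and Igf2 the peak with the highest fold lay outside the control region. The reads of both parental copies are pooled, so the folds do not compare binding per copy. A CAC peak 32.6 kb upstream of H19 and 56.1 kb downstream of the Igf2 start (chr7:149796415-149796868) had the highest CTCF fold of all 87 peaks, 24.6 at 339 reads (304 to 377), and a Rad21 fold of 17.7 at 225 reads (197 to 256). Its best matrix score, 13.9 bits, just missed the threshold. The other peaks between the control region and Igf2 were weak single-factor peaks, 2 Lone CTCF peaks with folds of 4.95 and 4.40 and a CNC peak with 4.15 that lay 110 bp from the second of these.

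Igf2 had no peak of either factor in its body or within 2.5 kb of any of its 9 annotated transcript starts. The nearest peaks were 2 CAC pairs upstream, toward the insulin gene Ins2. Their summits were 5.497 kb upstream (CTCF fold 17.1, Rad21 fold 11.8) and 9.06 kb upstream (6.24 and 10.8). Farther upstream, beyond Ins2, lay the second highest CTCF peak of the locus, 48.1 kb from the Igf2 start, with a CTCF fold of 24.2 (percentile 97.5) and a Rad21 fold of 8.29 (percentile 73.2).

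The strongest Lone CTCF peak of all the loci was in this stretch, 54.1 kb upstream of Igf2 (chr7:149906434-149907002). Its fold of 19.4 at 188 reads (162 to 217) was higher than in all but 27 of 18054 Lone CTCF peaks, it had a matrix match of 14.5 bits, and the nearest Rad21 peak was 5418 bp away. A second Lone CTCF peak, 59.4 kb upstream, had a fold of 14.2, with 148 Lone CTCF peaks above it. At the next 2 sites, 70.3 and 71.1 kb upstream, Rad21 was called but low, with folds of 4.31 and 3.82 (percentiles 40.4 and 30.4) under CTCF folds of 9.85 and 12.7 (percentiles 66.3 and 74.3).

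On the other side, downstream of H19, the enhancers shared with Igf2 are known to lie. The nearest summit of either factor there was 40.1 kb from the H19 start. Farther out, a CAC pair 55.6 kb from the H19 start was strong for both factors, with CTCF and Rad21 folds of 18.5 and 18.4 (percentiles 88.0 and 93.8). Nearer to H19, at the start of Mrpl23, a mitochondrial ribosomal protein gene, the CTCF peak had 441 reads (401 to 484) and a fold of 17.1, and its Rad21 partner had a fold of 3.72 at 33 reads, percentile 84.8 against 28.9. That peak lay in CpG-rich sequence, with 36 CpG in 300 bp, and had no matrix match. The next peak inward, 40.1 kb downstream of H19, had a match of 19.6 bits and folds of 11.3 (265 CTCF reads) and 6.68.

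Meg3, a maternally expressed non-coding RNA gene, carried 2 CAC pairs just inside its start, of which the second was strong for both factors and the first was at percentile 36.4 by fold and 53.7 by reads for Rad21. The first pair (chr12:110780158-110780556) had its CTCF summit 1.14 kb past the outermost Meg3 start, with a CTCF fold of 9.15 at 177 reads (152 to 205) and a Rad21 fold of 4.09 at 49 reads (36.3 to 64.8). The second (chr12:110780980-110781438), 2.04 kb past the start, had a CTCF fold of 18.2 at 348 reads (312 to 387) and a Rad21 fold of 15.998 at 195 reads (169 to 224). Both lay in exons of Meg3 and within 1 kb of an annotated transcript start. Both had strong matrix matches, on opposite strands, and these are printed with the positions 3 to 17 of the matrix in capitals because the matched bases contain CpG.
Meg3, first pair, plus strand, 23.9 bits: tgGCCGCAAGAGGGCGCtgg
Meg3, second pair, minus strand, 19.9 bits: agACCGCTAGGGGGCGCgcg
The second of these held 4 CpG in 20 bases and the first held 2. Of 43 matches in all member CTCF peaks, 17 held any CpG, and no such share was taken over the whole list.

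The region 10 to 16 kb upstream of Meg3, where the methylated control region between Dlk1 and Meg3 is known to lie, held only a Lone CTCF peak with a fold of 3.55 at 29 reads (19.4 to 41.6), with 29 CpG in 300 bp and no matrix match. Rad21 had no peak in it. Nearer to Meg3, 7 to 10 kb upstream, were 1 CAC pair and a neighbouring Lone CTCF and CNC peak, all with folds of at most 4.18. Of the 5 CNC peaks of the locus, all of them between Dlk1 and Meg3, the strongest was 40.7 kb upstream of Meg3 with a fold of 6.68, higher than in all but 332 of 18133 CNC peaks.

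Dlk1, a paternally expressed gene for a membrane protein related to Notch ligands, had no peak within 2.5 kb of any annotated start. Its nearest CAC peaks formed a group 14.9 and 16.4 kb upstream. The stronger of them (chr12:110675870-110676370) had 455 CTCF reads (414 to 499) and 325 Rad21 reads (291 to 362), with folds of 19.98 and 15.7, and the other had folds of 9.15 (207 CTCF reads) and 10.2. Another pair 58.8 kb upstream had folds of 21.7 and 16.01, and all 3 had matrix matches, of 21.1, 14.4 and 22.9 bits. The strongest Lone CTCF peak of the locus, 51.5 kb upstream of Dlk1, had a fold of 8.93 at 64 reads (49.3 to 81.7) and no match. Downstream of Meg3 the genes of the same transcribed stretch held little, apart from a pair in an intron of Rian with folds of 9.90 and 11.7.

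Kcnq1ot1 and Cdkn1c lie in one imprinted cluster and looked unlike each other. Kcnq1ot1 is a long antisense RNA whose promoter, inside Kcnq1, lies in the control region of the cluster. A CAC pair with a CTCF fold of 4.18 at 35 reads (24.4 to 48.7) and a Rad21 fold of 3.07 at 36 reads covered its start. A second pair within 1 kb of the start, which did not cover it, had a CTCF fold of 3.01 at 25 reads (16.2 to 36.9) and a Rad21 fold of 4.76 at 56 reads. The sequence was CpG-rich, with 17 to 27 CpG in 300 bp around these summits, and the best matrix score was 6.11 bits. All 7 CTCF peaks in the Kcnq1ot1 window were CAC, none had a fold above 6.02, and 1 had a matrix match.

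Cdkn1c, a maternally expressed inhibitor of cyclin-dependent kinases, had no peak within 2.5 kb of its start, but 3 CAC pairs with summits 3.05, 5.47 and 9.11 kb upstream. Their CTCF summits held 329 (294 to 367), 461 (420 to 505) and 389 (351 to 430) reads, and the Rad21 summits 334, 466 and 163. By reads these peaks stood at percentiles 91.1 to 97.0 of the CTCF list, but by fold, with values of 9.86, 10.8 and 11.5, at percentiles 66.3 to 70.9. The background around them, 32.5 to 41.6 reads, was the highest at any member CTCF peak, as 1649 to 2114 CTCF reads fell in the 10 kb around each. All 3 matches lay on the minus strand, the strand of Cdkn1c, and are printed, with positions 3 to 17 of the matrix in capitals, because they repeat one orientation within a few kb.
Cdkn1c, 3.05 kb upstream, minus strand, 26.0 bits: cgGCCACCAGGGGGCAGcat
Cdkn1c, 5.47 kb upstream, minus strand, 22.6 bits: tgACCACCAGGGGGCAGaat
Cdkn1c, 9.11 kb upstream, minus strand, 19.6 bits: tgGCCAGCAGGCGGCGCcca

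Farther upstream of Cdkn1c, a pair in an intron of Slc22a18, an organic cation transporter gene, had folds of 14.3 and 10.9, and 2 pairs upstream of Phlda2, a gene that limits placental growth, had CTCF folds of 11.7 and 13.5 (296 and 334 reads) and Rad21 folds of 8.85 and 12.1. Between Cdkn1c and Kcnq1ot1, by contrast, no CTCF peak had a fold above 6.02, and 7 CNC peaks had folds of 2.94 to 5.82. The strongest Lone CTCF peak, in an intron of Nap1l4, had a fold of 10.3 at 205 reads (178 to 235) and a match of 17.6 bits.

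**Figure D3:**
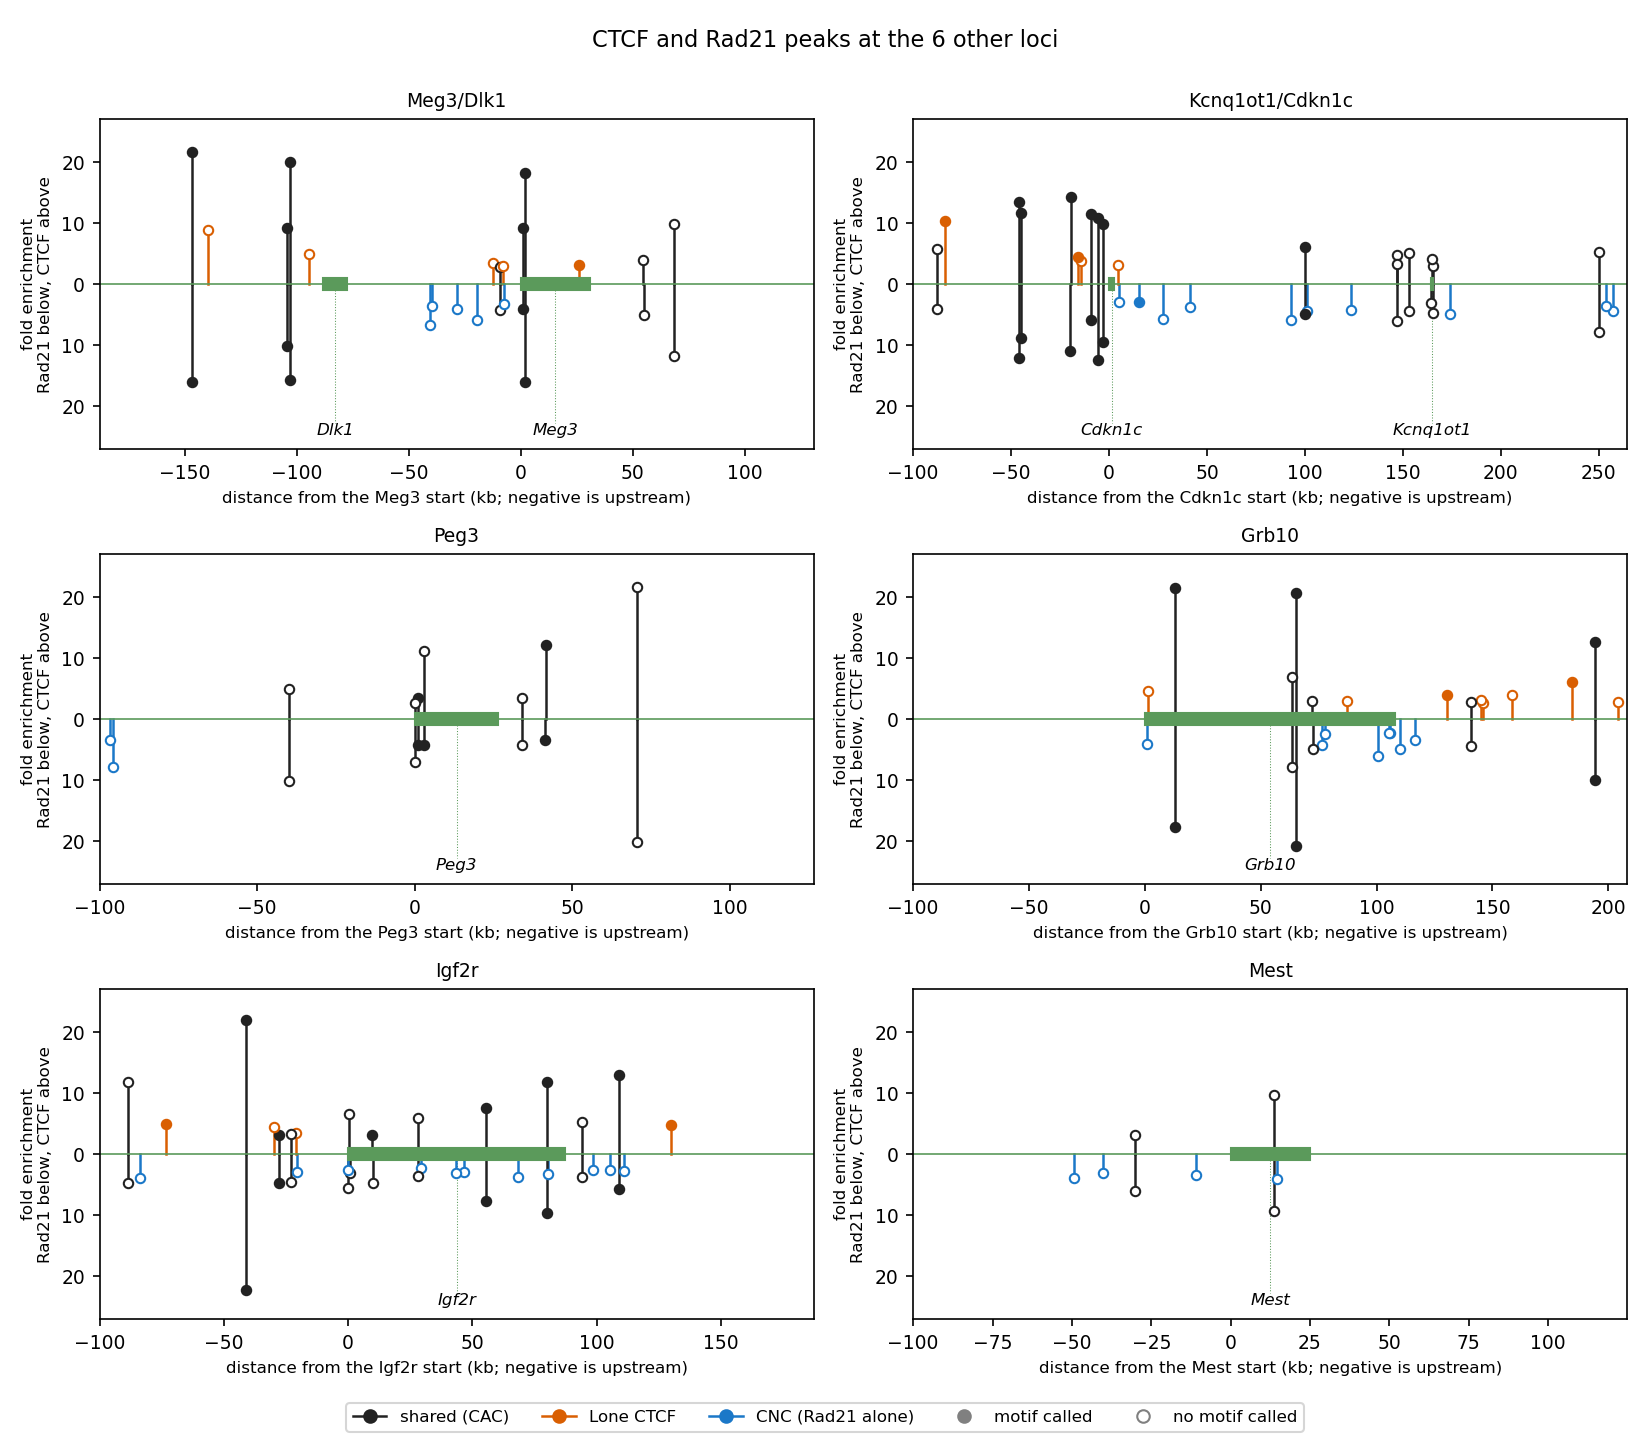
Fold enrichment at each summit (CTCF above the line, Rad21 below) against the distance in kb from a start at the 6 other loci; gene bodies are green, with Kcnq1ot1 marked by its start only. Among the highest shared peaks are those 40.98 kb upstream of Igf2r (folds of 22.0 and 22.2), 70.6 kb downstream of Peg3 (21.7 and 20.1) and 58.8 kb upstream of Dlk1 (21.7 and 16.01), and the shared peaks at the Kcnq1ot1 start are low, with CTCF folds of at most 4.18.

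Peg3 is a paternally expressed zinc finger gene with its control region over the promoter. The first 3 kb of the gene held 3 CAC pairs. At the start the CTCF peak (chr7:6682864-6683114) was among the weakest of the list, with a fold of 2.68 at 62 reads (47.5 to 79.5), while its Rad21 partner had a fold of 7.04 at 98 reads (79.6 to 119). These are percentiles 3.24 and 67.9, the widest gap in this direction among the 62 pairs. By reads, however, the CTCF summit stood at percentile 49.5, and 1144 reads fell in the 10 kb around it. The second pair, 1.15 kb into the gene, had folds of 3.51 at 83 CTCF reads and 4.25 at 59 Rad21 reads (percentiles 19.8 and 39.5 by fold, 58.6 and 62.3 by reads) and a match of 17.95 bits. The third, 2.91 kb into the gene (chr7:6679905-6680645), had a CTCF fold of 11.1 at 261 reads (230 to 295) and a Rad21 fold of 4.27 at 58 reads.

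The third Peg3 peak was the only member with 3 matrix matches, all on the minus strand, and none of them was within 100 bp of its CTCF summit. They are printed because they repeat closely related letters within 500 bp.
Peg3, chr7:6679989-6680008, minus strand, 14.7 bits: tgGCCACAAGGGGGTGTctg
Peg3, chr7:6680111-6680130, minus strand, 18.6 bits: tgGCCACAAGGGGGCATctg
Peg3, chr7:6680466-6680485, minus strand, 15.4 bits: tgGCCACTAGAGGCAGGcaa
The strongest peak of the locus was 70.6 kb downstream (chr7:6612297-6612772), with folds of 21.7 and 20.1 and a best matrix score below 0. It was a strong pair without the motif. At the next site inward, in an intron of Zim1 and 124 bp upstream of an internal start, CTCF stood higher in its list than Rad21. The folds were 12.2 at 88 CTCF reads and 3.48 at 20 Rad21 reads (percentiles 73.0 and 22.5 by fold, 60.2 and 3.32 by reads). The strongest CNC peak of all the loci, 95.7 kb upstream of Peg3, had a fold of 7.79 at 53 reads (39.7 to 69.3), higher than in all but 122 of 18133 CNC peaks, and the nearest CTCF peak was 55513 bp away.

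Grb10, which codes for an adaptor that dampens insulin and growth factor signalling, is expressed from the maternal copy in most tissues and from the paternal copy in the brain, from different promoters. A site 65.1 kb into the gene (chr11:11873314-11873816), had more reads than any other member peak, 545 for CTCF (500 to 593) and 730 for Rad21 (678 to 785), percentiles 98.3 and 99.9 by reads, with both summits on the same base. The folds were 20.6 and 20.7. A neighbouring pair, which shared much of its 10 kb with the first, had folds of 6.91 at 181 CTCF reads and 7.74 at 269 Rad21 reads (percentiles 55.1 and 71.2 by fold, 76.7 and 94.8 by reads). Another strong pair, at an internal transcript start 12.9 kb into the gene (chr11:11925597-11926138), had folds of 21.4 and 17.6, 28 CpG in 300 bp, and a match of 14.3 bits with 3 CpG.
Grb10, internal start, plus strand, 14.3 bits: tcGCCACACGGGGTCGCtgc
Near the outermost Grb10 start the factors did not meet, with a Lone CTCF peak of fold 4.67 and a CNC peak of fold 3.99 that were 177 bp apart. The strongest CNC peak of the locus (fold 5.97) lay within 1 kb of another Grb10 start, and its strongest Lone CTCF peak (fold 6.14 at 50 reads) lay in an intron of the neighbouring gene Ddc.

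Igf2r, a maternally expressed receptor that takes IGF2 to the lysosome, and Airn, the paternally expressed antisense RNA that starts inside Igf2r, both had CAC pairs at their starts. At the Igf2r start (chr17:12961993-12962549) the CTCF fold was 6.57 at 63 reads (48.4 to 80.6), overlapping 2 Rad21 peaks with folds of 5.58 and 3.07. At the Airn start (chr17:12934077-12934449) the folds were 5.97 at 52 reads (38.8 to 68.2) and 3.49 at 28 reads (18.6 to 40.5). Neither had a matrix match. The strongest pair was 40.98 kb upstream of Igf2r (chr17:13003273-13003794), with folds of 22.0 and 22.2 and a match of 19.9 bits. Of the 23 Rad21 peaks, 11 were CNC, with folds of 2.34 to 3.97. The strongest of them lay in an intron of Mas1, and others lay close to starts, with folds of 3.76 at an internal Igf2r start, 2.53 just upstream of the outermost one and 2.34 upstream of the Airn start. The latter pair lay 158 and 598 bp from the nearest CTCF peak. The strongest Lone CTCF peak (fold 4.95 at 35 reads) also lay in an intron of Mas1.

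Mest, a paternally expressed gene for a hydrolase-like protein, had the fewest peaks. Its annotated transcripts start at 11 positions, and the outermost start had no peak of either factor within 10 kb. The main peak (chr6:30686897-30687323) lay just upstream of the internal starts, with a CTCF fold of 9.70 at 92 reads (74.2 to 113) and a Rad21 fold of 9.37 at 95 reads (76.9 to 116), and a best matrix score of 9.01 bits. A CNC peak at the internal start itself had a fold of 3.99 at 41 reads (29.4 to 55.6) with 35 CpG in 300 bp. The other CTCF peak, at the start of Tsga14, had folds of 3.16 for CTCF and 5.999 for Rad21 (percentiles 11.5 and 61.2).

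Over all 10 genes, 6 had a CTCF peak within 1 kb of a start, namely Meg3, Peg3, Grb10, Igf2r and Mest by an annotated start and Kcnq1ot1 by the start placed from its promoter sequence, and the share among protein-coding genes was 54.9%. The same 6 had a Rad21 peak there, against 54.4%, and in each the 2 factors were shared at 1 site or more. The 4 without were H19, Igf2, Dlk1 and Cdkn1c. Counting only the outermost start of each gene, 4 genes had a CTCF peak and 5 a Rad21 peak within 1 kb. Of 12 control regions and starts examined, 8 held a CTCF peak, 7 a Rad21 peak and 7 a CAC peak. These regions differ in length, and all starts of Grb10, of Igf2 and of Dlk1 count as 1 region each. No share over like regions of other genes was taken, so the counts are a description only. Without a peak of either factor were those at the Igf2, Dlk1, Cdkn1c and outermost Mest starts. With every annotated start counted for all genes, which adds the internal Mest starts, 9 held a CTCF peak and 8 a Rad21 peak. At the Kcnq1ot1 start neither CTCF peak reached a fold of 5.

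Of 49 other imprinted genes listed, 47 were annotated, and 27 of these had a CTCF peak within 1 kb of a start (57.4%), 21 a Rad21 peak (44.7%) and 46 a CAC peak in the extended span (97.9%). Among all protein-coding genes the shares were 54.9%, 54.4% and 90.2%. The median number of peaks in the extended span was 10 for each factor, against 12 for all protein-coding genes. They include neighbours of the 10, whose windows overlap those described above.

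The CTCF motif was found in 38 of the 87 CTCF peaks (43.7%, 33.7 to 54.1%), and in 43.9% of the CTCF list on the same chromosomes. It was found in 31 of the 104 Rad21 peaks (29.8%, 21.9 to 39.2%), against 33.7% of the list. By class it was found in 30 of 62 CAC peaks of the CTCF list (48.4%, 36.4 to 60.6%), 8 of 25 Lone CTCF peaks (32.0%, 17.2 to 51.6%) and 1 of 42 CNC peaks (2.38%, 0.42 to 12.3%). The shares over the lists were 45.4%, 39.9% and 2.86% in the same order, all inside these intervals. The median CpG count in 300 bp was 5 at CTCF and 5 at Rad21 summits, with 4 and 5 in the lists, and 8 of 87 CTCF peaks (9.20%) exceeded the upper decile of the list. Summits within 1 kb of any annotated start, of these or other genes, were 19 of 87 for CTCF and 25 of 104 for Rad21. Intergenic summits were 31 and 36, and summits in introns only were 43 and 55. No such shares were taken over the whole lists, so these counts of position are a description only.

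Pairs of CTCF and Rad21 at these genes were less alike in rank than in the lists as a whole. Over 62 pairs the Spearman coefficient of the 2 folds was 0.58, and over 50613 pairs of the whole lists it was 0.77, a description with no test, since neighbouring pairs share libraries and background. The median distance between the summits was 40 bp, against 34 bp. Among the pairs with high CTCF and low Rad21 were those at Mrpl23 and in the Zim1 intron, and among those with the reverse order were the Peg3 start and Tsga14.

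**Figure D4:**
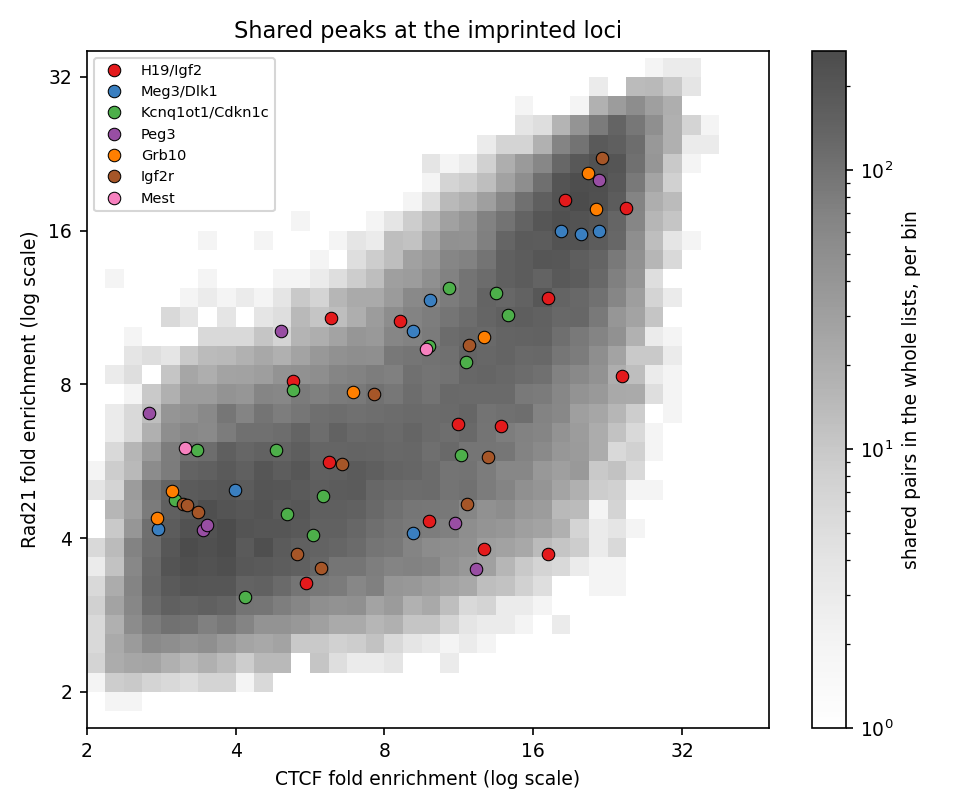
Rad21 against CTCF fold enrichment (both axes logarithmic) at the 62 shared pairs of the imprinted loci, coloured by locus, over all 50613 shared pairs of the lists (grey, pairs per bin). Most pairs fall within the grey cloud; the Peg3 start is the leftmost purple point, and the pair at Mrpl23 is the red point at 17.1 and 3.72.

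The median local background of the CTCF peaks at the imprinted genes was 8.73 reads, against 9.14 in the list, but some groups of neighbouring peaks had a high one. Of the 87 CTCF peaks, 16 (18.4%) had a background above 20.1 reads, the upper decile of the list, and of the 104 Rad21 peaks 7 (6.73%) were above the corresponding 16.1 reads. The CTCF peaks among them lay in a few groups whose members share much of the same 10 kb, upstream of Cdkn1c, upstream of Phlda2 and in Slc22a18, at Mrpl23, in the first 3 kb of Peg3, upstream of Dlk1 and inside Grb10. How much it lowered the folds at Cdkn1c and at the Peg3 start was not tested beyond the reads given above.

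**Figure D5:**
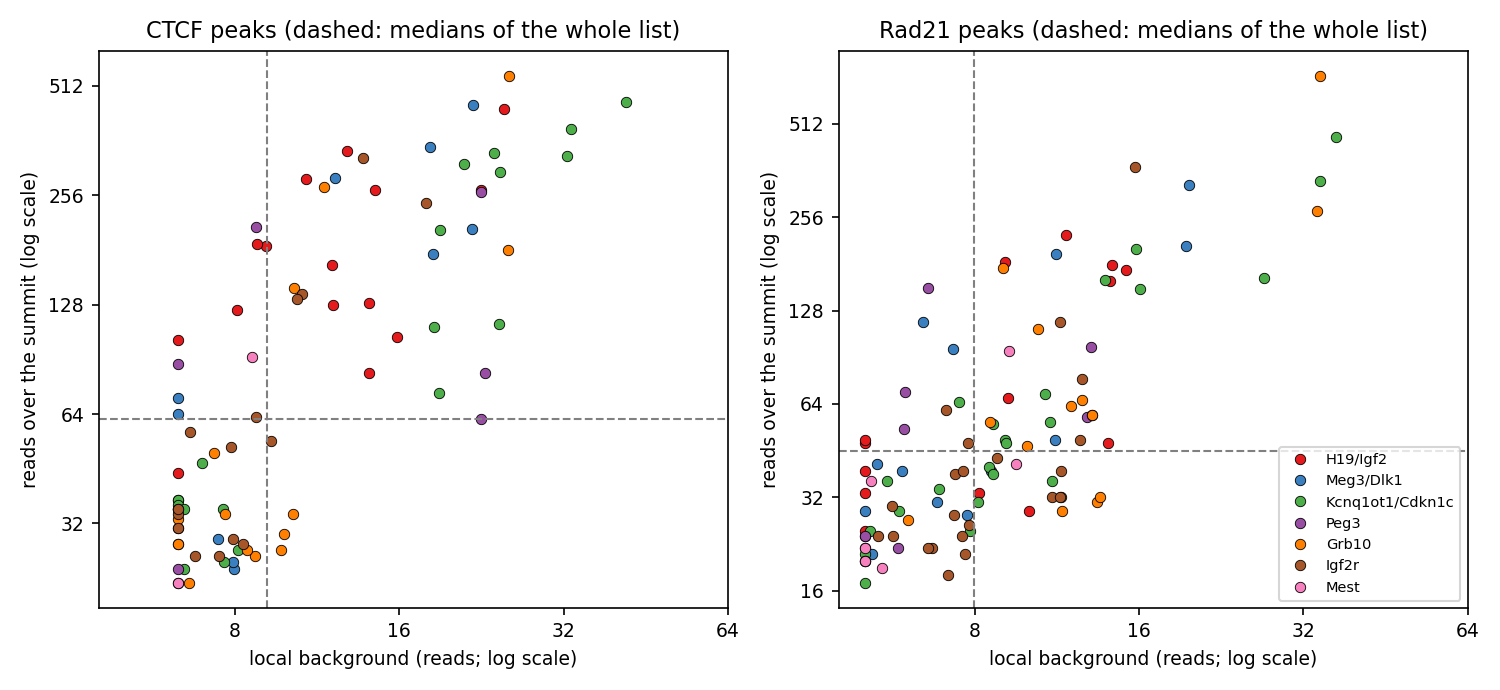
Reads over the summit against local background, both on logarithmic axes, for the CTCF peaks (left) and Rad21 peaks (right) of the imprinted loci, with dashed lines at the medians of the whole lists (62 reads and a background of 9.14 for CTCF, 45 reads and 7.96 for Rad21). The Cdkn1c peaks lie at the far right with high reads, and the Grb10 peak with 545 CTCF and 730 Rad21 reads is the highest point of either panel.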

How the data were processed

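Chromatin of female mouse liver was immunoprecipitated for CTCF (4 libraries) or Rad21 (3 libraries). The authors aligned the reads with Bowtie2 to mm9 and discarded those without a unique position, pooled the libraries of each antibody, called peaks with MACS2 at default parameters, and removed blacklisted peaks and peaks of identical reads only. In both deposited lists each peak has a score, a fold enrichment (a ratio), −log10 p and −log10 q, and a summit position, all made by the authors. No column belongs to a single library. Pooling hides the variation between mice, and binding below the peak threshold is not seen.

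Reads and local background were solved from the deposited fold and −log10 p under the Poisson model of MACS2. A whole read number gave the p within 0.01 in all Rad21 and all but 4 CTCF peaks, and the latter were given no read number. No separate control library is named in the sources used here. The depth of the pools was not used here. Genes came from GENCODE vM1, and the Kcnq1ot1 start from a RefSeq promoter sequence of another build, matched by its letters. The motif matrix was learned from 1000 CTCF peaks on autosomes that hold none of the 10 genes, and called within 100 bp of a summit; FIMO was not used. Shares have 95% Wilson intervals, for counting error only. The steps were tested on simulated data. Python 3.11.15, numpy 2.4.6, pandas 2.3.3, scipy 1.17.1, pysam 0.24.0 and matplotlib 3.10.9 were used.

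The genes, the list of other imprinted genes and the tests were chosen with earlier results of these data known. The rule named every peak in a control region or within 1 kb of a start, and in each locus the strongest CTCF, Rad21, Lone CTCF and CNC peak. Others named were chosen after their values were seen: the pairs upstream of Igf2, Dlk1, Cdkn1c and Phlda2, those at Mrpl23, Zim1, Rian and Tsga14, the pair beside the strongest Grb10 site, the second Lone CTCF peak upstream of Igf2, the Lone CTCF peaks between H19 and Igf2, and the weak peaks just upstream of Meg3.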

Additional observations from a re-analysis of the deposited data

How the results depend on the processing

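Of 46 alternatives over 14 results, 34 left the value within its spread, or a count within 1.5 times, and 12 moved it. With a minimum fold of 5, the windows held 51 CTCF and 43 Rad21 peaks, with a minimum −log10 q of 10 they held 65 Rad21 peaks, and with 200 kb to each side 138 and 157. With summits within 100 bp, CAC peaks were 55.2% of the CTCF and 46.2% of the Rad21 peaks (lists 60.8 and 60.8%). With −log10 q of at least 10 in both lists, 69.2% of Rad21 peaks were CAC (list 80.7%), and with a fold of at least 5, 76.7% (list 83.9%). A 5% background rate gave a motif in 65.5% of CTCF and 43.3% of Rad21 peaks (lists 62.4 and 48.3%). CpG per 100 bp at Rad21 summits was 1.60 in 500 bp and 1.67 in 300 bp. The cause of these shifts was not tested, beyond the construction of each alternative. Reads at the summit in place of the fold, and every annotated transcript start for all genes (9 regions with CTCF and 8 with Rad21), were added after the data were seen, and neither moved a result. No paired analysis was possible because each antibody's libraries were pooled before peaks were called, and for the same reason no library could be left out. Read counts near 20 at the weakest peaks limit what can be said of them.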
